A study of Mus musculus with 6 samples.

Results

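The cohesin genes examined here are 9 of the 22219 gene symbols in the table: 4 that encode meiotic subunits (Stag3, Rec8, Rad21l and Smc1b) and 5 that encode mitotic or shared subunits (Stag1, Stag2, Rad21, Smc1a and Smc3). They were picked out by symbol and by no threshold on their values, although earlier results of these data were known, and all 9 were found and passed the filter on low values. RNA was taken from the testes of mice on day 10, in 3 libraries from animals with a germ cell conditional deletion of Eif5 (cKO; Eif5fl/fl mice crossed with Stra8-Cre mice) and 3 from control animals. Stra8-Cre is active in male germ cells from the spermatogonial stages on, so the Sertoli, Leydig and other somatic cells of the organ keep the gene. The labels do not give the alleles of the controls, and they do not say whether a library came from 1 animal or a pool. The comparison asked what loss of the translation factor eIF5 in germ cells did to the testis transcriptome.

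Cohesin is a protein ring that holds sister chromatids together. It is built from the SMC1 and SMC3 ATPases, a kleisin that closes the ring and a STAG subunit that binds the kleisin. Dividing cells and most resting cells use SMC1A, SMC3, RAD21 and either STAG1 or STAG2. Germ cells entering meiosis add SMC1B, the kleisins REC8 and RAD21L, and STAG3, which form the core of the chromosome axes on which homologues pair; SMC3 is common to both kinds of complex. Male mice that lack Stag3, Rec8, Rad21l or Smc1b are sterile.

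The promoters of the meiotic subunits are shown because their transcripts moved together, with that of Smc1a, the mitotic paralogue of Smc1b, for comparison. Each line is the RefSeq promoter of GRCm38.p6, 250 bases before to 50 bases after the start, on the strand of the gene. Capitals mark matches, on either strand, to TCCCGC (a core of E2F sites), CACGTG (an E-box) and CCTCAG (a core reported for STRA8).
Stag3: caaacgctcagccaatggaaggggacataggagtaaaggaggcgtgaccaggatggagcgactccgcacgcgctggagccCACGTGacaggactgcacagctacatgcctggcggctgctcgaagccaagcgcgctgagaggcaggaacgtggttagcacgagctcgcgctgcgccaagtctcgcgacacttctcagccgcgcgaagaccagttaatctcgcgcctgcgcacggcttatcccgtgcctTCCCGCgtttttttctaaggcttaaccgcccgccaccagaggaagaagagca
Smc1b: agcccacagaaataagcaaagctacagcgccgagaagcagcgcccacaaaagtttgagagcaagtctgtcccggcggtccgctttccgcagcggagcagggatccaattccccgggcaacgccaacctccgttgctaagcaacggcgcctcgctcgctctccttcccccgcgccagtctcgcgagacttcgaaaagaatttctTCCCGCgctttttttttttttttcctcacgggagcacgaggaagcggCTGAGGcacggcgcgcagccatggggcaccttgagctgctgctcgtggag
Rec8: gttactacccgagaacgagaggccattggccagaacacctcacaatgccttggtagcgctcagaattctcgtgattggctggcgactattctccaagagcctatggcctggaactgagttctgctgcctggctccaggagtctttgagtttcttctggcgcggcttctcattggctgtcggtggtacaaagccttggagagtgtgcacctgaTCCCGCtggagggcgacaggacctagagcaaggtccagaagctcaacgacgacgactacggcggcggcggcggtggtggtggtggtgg
Rad21l: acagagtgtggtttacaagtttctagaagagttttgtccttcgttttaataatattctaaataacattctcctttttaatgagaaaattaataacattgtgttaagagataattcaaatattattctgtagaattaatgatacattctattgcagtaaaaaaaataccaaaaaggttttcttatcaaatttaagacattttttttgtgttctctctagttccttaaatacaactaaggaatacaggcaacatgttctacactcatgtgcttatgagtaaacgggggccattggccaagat
Smc1a: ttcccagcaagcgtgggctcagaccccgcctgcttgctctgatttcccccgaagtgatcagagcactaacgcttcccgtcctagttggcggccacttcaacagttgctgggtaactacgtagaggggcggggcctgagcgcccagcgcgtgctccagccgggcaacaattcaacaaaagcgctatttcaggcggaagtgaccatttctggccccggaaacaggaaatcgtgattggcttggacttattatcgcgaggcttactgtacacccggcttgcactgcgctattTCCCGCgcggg
They lie at chr5:138280259-138280558 on the plus strand for Stag3, chr15:85131908-85132207 on the minus strand for Smc1b, chr14:55617916-55618215 on the plus strand for Rec8, chr2:151668484-151668783 on the minus strand for Rad21l and chrX:152016178-152016477 on the plus strand for Smc1a. Of the 9 genes, 7 had a promoter in the RefSeq table; Rad21 and Stag2 had none there.

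The E2F core TCCCGC stood in the promoters of Stag3, Rec8 and Smc1b among the meiotic genes, and in those of Stag1, Smc1a and Smc3 among the others, so it did not set the groups apart. It occurs in 6562 of 32851 promoters of the same length, 20%. In Stag3 and Smc1b the core ran on into a stretch of T, and extending it in the 3′ direction with 1 difference allowed gave a longer shared string. This string, TCCCGCGNTTTTTT, taken from these 2 promoters after they were seen, occurs in 4 of the 32851 promoters, 0.0122%, and 2 of the 4 are those of Stag3 and Smc1b. An E-box was found in the Stag3 promoter alone of the 7 (7.15% of all promoters), and the STRA8 core in the Smc1b promoter alone (26.8% of all promoters). The Rad21l promoter held none of the 3 motifs, with 29.0% G and C and 2 CpG, against 58.3% to 61.3% and 18 to 30 CpG in the other 3 meiotic promoters and a median over all promoters of 52.7% and 7 CpG. The matches describe letters only, and binding was not measured.

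The libraries held 32555443 to 48015318 recovered reads in cKO and 33631996 to 48409550 in control. Values are normalised read counts, that is reads divided by 1 size factor per library. Changes are log2 fold changes of cKO over control on the log2(value + 2) scale, tested with limma and called at an adjusted p under 0.05 over all 17570 genes tested. Eif5 itself had 8548, 8982 and 9574 normalised read counts in cKO, against 11964, 10551 and 11187 in control (log2 fold change -0.31, limma adjusted p = 0.024; 0.13 without cKO replicate 1 and 0.0875 without cKO replicate 2). Reads from the deleted part of the gene are not separated in the table, and the somatic cells keep the whole gene. Germ cell markers were lower in cKO: all 4 of Ddx4, Dazl, Piwil2 and Tdrd1 fell, with a summed level of 13990 to 15562 in cKO and 19930 to 28034 in control. Of 8 markers of differentiating spermatogonia 7 fell (sums of 11663 to 13582 in cKO and 24522 to 24764 in control). Of 11 markers of undifferentiated spermatogonia 5 rose and 0 fell by limma (1 fell at an unadjusted p under 0.05, and 1 by edgeR or DESeq2; sums of 10074 to 11162 in cKO and 8432 to 9509 in control), as did 5 of 11 Sertoli cell markers (450070 to 507972 in cKO and 292506 to 415489 in control), 5 of 6 Leydig cell markers (15100 to 20175 in cKO and 9185 to 14303 in control) and 4 of 6 macrophage markers (5906 to 7142 in cKO and 4554 to 5997 in control). These counts stand beside 10.4% of all genes tested called lower and 9.63% called higher. No marker was at 0 in any library. In such bulk samples fewer cells of a type and less RNA per cell cannot be told apart.

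All 4 meiotic subunit genes fell in cKO, to between 31.9% and 58.0% of the control mean, while of the 5 mitotic or shared genes Smc3 fell, to 79.7%, and the other 4 did not pass the test. Over all genes tested, 10.4% were called lower and 9.63% higher. A fall of at least 2-fold, seen for Stag3, Smc1b and Rad21l, was called for 1.95% of genes. The median log2 fold change was -1.41 over the meiotic set and -0.21 over the mitotic or shared set, beside 0.01 over all genes tested. In all 3 cKO libraries the summed meiotic values were lower (3331, 3753 and 3513 normalised read counts in cKO, against 10166, 8311 and 8125 in control). The summed mitotic or shared values overlapped (20634, 22822 and 21884 in cKO, against 25265, 21315 and 21513 in control). Rad21 was the largest part of that sum (a mean of 11479 of 21780 in cKO). Of the 5 genes, 3 had every cKO library below every control, as 18.4% of all genes tested did.

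**Figure D1:**
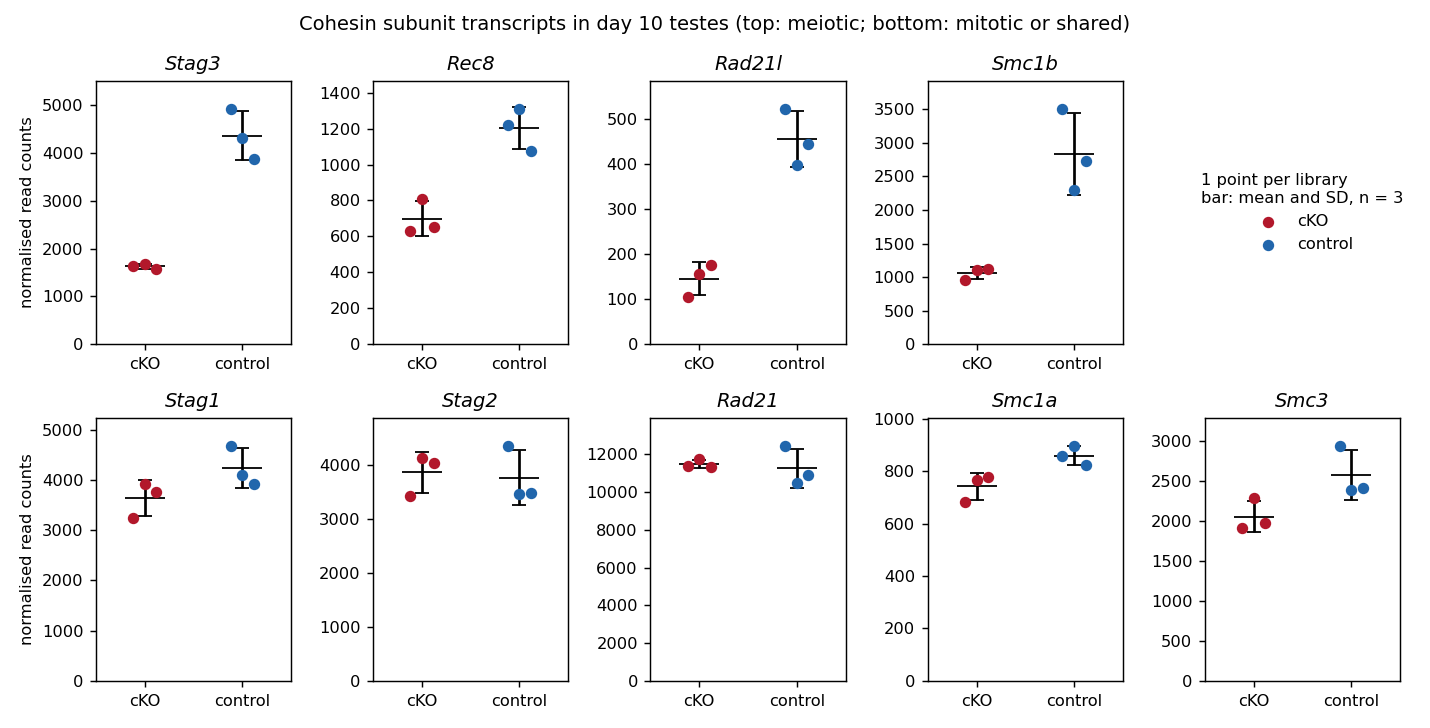
Normalised read counts of the 4 meiotic (top) and 5 mitotic or shared (bottom) cohesin genes, 1 point per library, with cKO on the left and control on the right of each panel and bars for the mean and SD (n = 3). The cKO and control points do not overlap in any of the 4 meiotic panels, and they overlap for Stag2 and Rad21.

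Among the STAG subunits, Stag3, the partner of the meiotic kleisins, had 1637, 1683 and 1565 normalised read counts in cKO, against 4921, 4310 and 3880 in control. The cKO libraries lay close together and below every control. The log2 fold change was -1.42 (95% interval -1.62 to -1.21, limma adjusted p = 7.83e-09). Stag1, the STAG subunit linked to cohesion at telomeres, had 3239, 3915 and 3755 normalised read counts in cKO, against 4676, 4094 and 3915 in control. The groups only just failed to overlap, and the change did not pass the test (-0.22, 95% interval -0.43 to -0.01, limma adjusted p = 0.129). Stag2, its X-linked counterpart, had 3425, 4134 and 4031 in cKO, against 4352, 3464 and 3477 in control. Here the groups overlapped, and the interval spanned 0 (0.04, 95% interval -0.18 to 0.26, limma adjusted p = 0.829).

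The kleisins are the subunits that separase cuts to release the chromatids. Rec8, the kleisin that keeps sister centromeres together through the first meiotic division, had 629, 809 and 654 normalised read counts in cKO, against 1223, 1308 and 1075 in control. Its groups were separate, with a log2 fold change of -0.79 (95% interval -1.04 to -0.54, limma adjusted p = 0.000117). Rad21l, a kleisin of early meiotic prophase, had 104, 157 and 174 in cKO, against 521, 397 and 444 in control. It had the largest fall of the 9 genes and the widest spread relative to its level among the cKO libraries, where replicate 1 was lowest (-1.66, 95% interval -2.05 to -1.27, limma adjusted p = 3.88e-06). Rad21, the kleisin of somatic cells, had 11370, 11720 and 11347 in cKO, against 12437, 10475 and 10881 in control. The cKO values fell inside the control range, and the interval spanned 0 (0.03, 95% interval -0.17 to 0.23, limma adjusted p = 0.859). That interval holds for the deposited size factors only, and other scalings are given below.

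Among the SMC subunits, Smc1b, the meiotic form of SMC1, had 961, 1104 and 1118 normalised read counts in cKO, against 3503, 2296 and 2726 in control. The controls were spread widely, with replicate 1 highest, but all lay above the cKO libraries (-1.40, 95% interval -1.66 to -1.14, limma adjusted p = 1.75e-07). Control replicate 1 also had the highest summed level of the germ cell markers (28034) and the lowest of the Sertoli cell markers (292506). Clu made up most of that Sertoli cell sum (157598 in control replicate 1, against 252501 and 257035 in the other controls). Most other Sertoli cell markers were also lowest there among the controls, but Sox9 and Wt1 were highest. Without control replicate 1 Smc1b still fell (-1.24). Smc1a, the X-linked somatic form, had 683, 767 and 778 in cKO, against 856, 896 and 823 in control. The groups did not overlap, yet the change did not pass the test (-0.21, 95% interval -0.44 to 0.02, limma adjusted p = 0.192). Groups that do not overlap were found for 36.7% of all genes tested. Smc3, which serves both kinds of complex, had 1916, 2286 and 1973 in cKO, against 2943, 2386 and 2416 in control. It was the 1 gene of the mitotic or shared set that fell (-0.32, 95% interval -0.54 to -0.11, limma adjusted p = 0.0334). That call ended without cKO replicate 1 or 3 or control replicate 1 (limma adjusted p = 0.143, 0.116 and 0.122).

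The meiotic genes did not all fall to the same degree. The interval of Rec8 lay above those of Stag3, Smc1b and Rad21l and did not touch them. Taken within a library, so that any scaling of the library cancels, the log2 ratio of Rec8 to Stag3 was -1.38, -1.06 and -1.26 in cKO, against -2.01, -1.72 and -1.85 in control, a mean difference of 0.63. All cKO ratios lay above all control ratios. The ratio of Smc1b to Stag3 differed by 0.02 (SD 0.14 in cKO and 0.24 in control) and that of Rad21l to Stag3 by -0.26 (SD 0.42 in cKO and 0.16 in control), and in both the groups overlapped. Between the meiotic kleisins, the ratio of Rad21l to Rec8 was -2.60, -2.37 and -1.91 in cKO, against -1.23, -1.72 and -1.28 in control. Within the mitotic set the ratio of Stag1 to Stag2 was -0.08, -0.08 and -0.10 in cKO, against 0.10, 0.24 and 0.17 in control. The mean difference was small (-0.26), and all cKO ratios lay below all control ratios. These ratios were chosen after their values were seen and are given without a test. The mix of cell types does not cancel in them as scaling does, and its part was not tested.

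Each meiotic gene was also set against its own mitotic paralogue within a library. Scaling cancels in such a ratio, but the mix of germ and somatic cells does not, and its part was not tested. The log2 ratio of Stag3 to Stag1 was -0.98, -1.22 and -1.26 in cKO, against 0.07, 0.07 and -0.01 in control, a difference of -1.20. For Stag3 to Stag2 it was -1.06, -1.30 and -1.36 in cKO, against 0.18, 0.32 and 0.16 in control, a difference of -1.46. Both ratios separated the groups by far more than the spread within either. The ratio of Rec8 to Rad21 was -4.18, -3.86 and -4.12 in cKO, against -3.35, -3.0 and -3.34 in control, a difference of -0.82, the smallest of the 5. The ratio of Rad21l to Rad21 was -6.78, -6.23 and -6.02 in cKO, against -4.58, -4.72 and -4.62 in control, a difference of -1.70, the largest. The ratio of Smc1b to Smc1a was 0.49, 0.53 and 0.52 in cKO, against 2.03, 1.36 and 1.73 in control, a difference of -1.19. All 5 ratios were lower in 3 of 3 cKO libraries than in any control. In a 2-sided exact permutation test each had p = 0.1, and 0.1 after adjustment over the 5 ratios, which is the smallest p that 3 libraries against 3 can give. The intervals of the fold changes did not overlap between any meiotic gene and its paralogue.

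**Figure D2:**
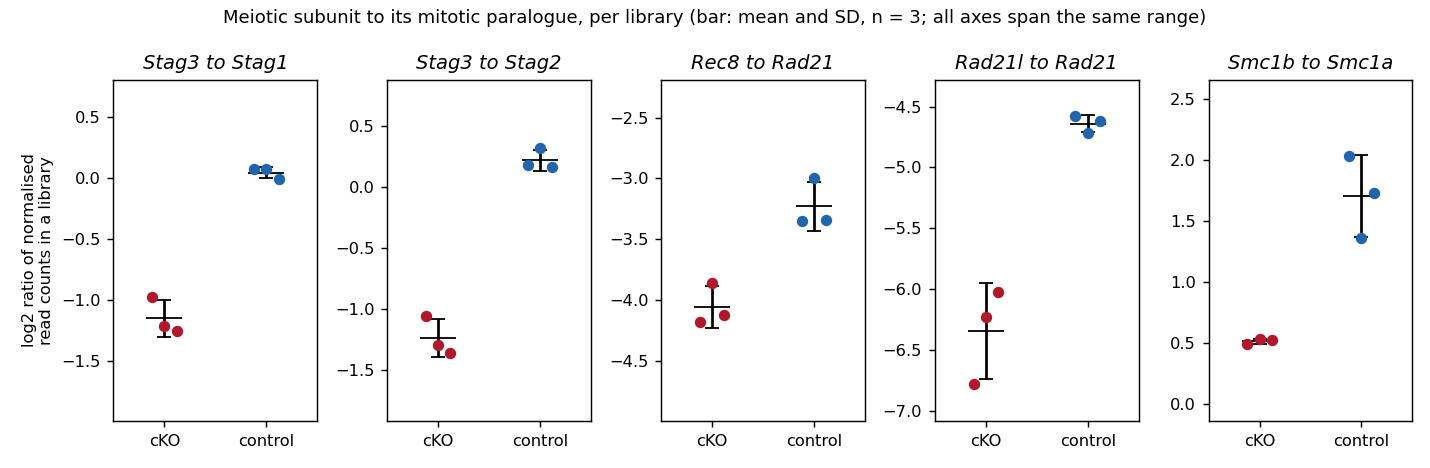
Log2 ratio of normalised read counts of each meiotic subunit to its mitotic paralogue, 1 point per library, cKO left and control right, with bars for the mean and SD (n = 3). Every cKO point lies below every control point in all 5 panels; the levels of the axes also hold the lengths of the transcripts, and only the distance between the groups is free of them.

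To compare subunits with each other, values were divided by the length of the exons in GENCODE M21. Rad21 was the most abundant subunit gene in both groups, at 2712 ± 49.4 normalised read counts per kilobase in cKO and 2662 ± 245 in control (SD, n = 3 each). In control testes Stag3 (762 ± 91.2 per kilobase) and Smc1b (702 ± 151) came next and did not differ beyond their spread. They were followed by Smc3 (466 ± 56.5), Stag2 (455 ± 61.5), Rec8 (409 ± 40.1) and Stag1 (359 ± 33.8), whose neighbours in the order lay within 1 SD or little more of each other, and then by Rad21l (274 ± 37.5) and Smc1a (149 ± 6.32). In cKO testes the order changed. Stag2 (467 ± 46.3 per kilobase) and Smc3 (371 ± 35.9) stood ahead of Stag3 (284 ± 10.4), Smc1b (262 ± 21.5) and Rec8 (238 ± 33.1) in every library. Stag1 (309 ± 30.0) overlapped Stag3 and did not differ from it beyond the spread, and the neighbours Stag3, Smc1b and Rec8 overlapped likewise. Rad21l (87.3 ± 22.2) took the last place below Smc1a (129 ± 9.0). With the length of the longest transcript in place of all exons Rad21 and Stag3 still led in control, and Stag3 again had a lower mean than Stag2 and Smc3 in cKO. In control the mean of Stag1 moved ahead of those of Rec8, Stag2 and Smc3. The overlap of Stag1 and Stag3 in cKO also depended on the length. With the longest transcript Stag1 (524, 633 and 607 per kilobase) lay above Stag3 (351, 361 and 335) in every cKO library.

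**Figure D3:**
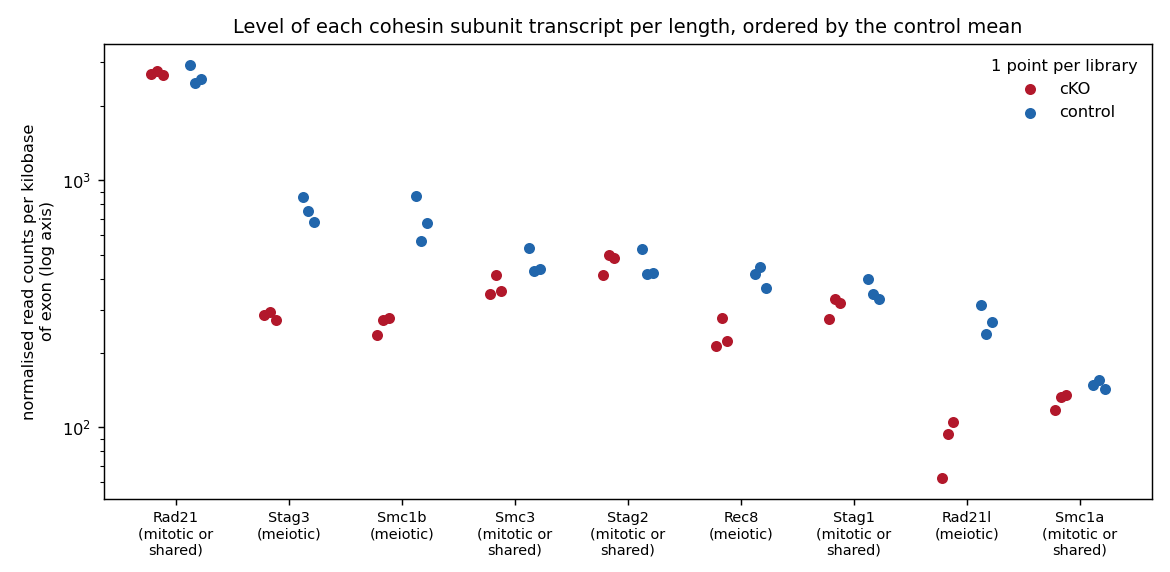
Normalised read counts per kilobase of exon of the 9 cohesin genes on a log axis, 1 point per library, cKO left of control at each gene and genes ordered by the control mean. Rad21 is highest in both groups, and Stag3 and Smc1b follow it in control; in cKO their points lie below those of Stag2 and Smc3, and the Stag3 points overlap those of Stag1.

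Expressed as a share of the transcripts of a subunit class per kilobase, Stag3 made up 29.3%, 26.1% and 25.3% of the STAG transcripts in cKO, against 48.2%, 49.5% and 47.3% in control. Smc1b made up 66.7%, 67.2% and 67.2% of the SMC1 transcripts in cKO, against 85.4%, 78.5% and 82.5% in control. It thus remained the larger share of SMC1 transcripts in every cKO library. Rec8 and Rad21l together made up 9.34%, 11.8% and 10.9% of the kleisin transcripts in cKO, against 19.9%, 21.7% and 19.8% in control. None of these shares overlapped between the groups, and none depends on how the libraries were scaled. The shares can still move with the mix of germ and somatic cells, which was not tested. They do depend on the length used: with the longest transcript Stag3 averaged 22.4% in cKO and 42.0% in control, and Smc1b 62.3% in cKO and 78.9% in control.

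Because germ cell and somatic markers moved with the genotype, the members were read again on scales set by each. On the scale of the 4 germ cell markers, which put the median of all genes at 0.51 in place of 0.01, Stag3 (-0.91, limma adjusted p = 5.35e-05), Rad21l (-1.15, limma adjusted p = 6.93e-05) and Smc1b (-0.89, limma adjusted p = 7.14e-05) were still called lower. Rec8 was not (-0.28, 95% interval -0.67 to 0.11, limma adjusted p = 0.232). Stag2 (0.55) and Rad21 (0.54) were called higher on that scale, and Stag1 (0.29), Smc1a (0.30) and Smc3 (0.19) were not called. Of the 17570 genes tested, 8101 were called higher and 248 lower there. On the scale of the Sertoli cell markers, which put the median of all genes at -0.40, all 9 genes were called lower, the meiotic set by -1.20 to -2.07 and the mitotic or shared set by -0.37 to -0.74. With that scale 7670 of all 17570 genes tested were called lower and 56 higher. Directions of the mitotic genes thus followed the scale, and the falls of Stag3, Rad21l and Smc1b were called on every scale tried. The part of cell numbers in these values was not tested.

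**Figure D4:**
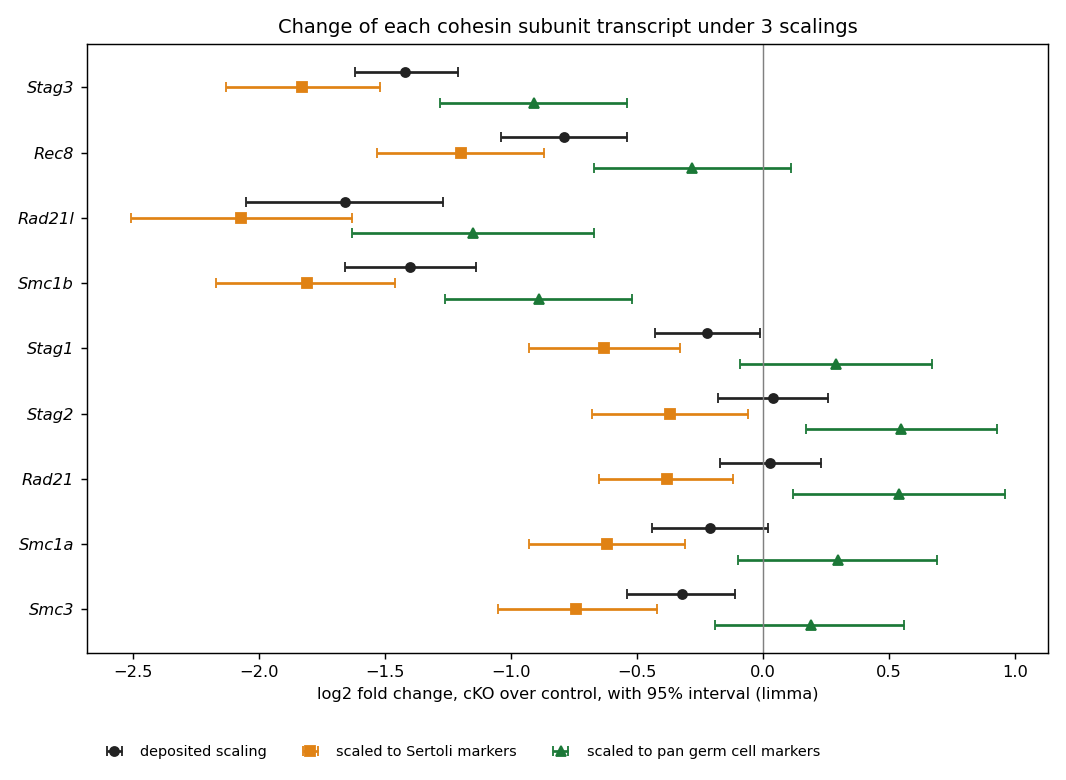
Log2 fold change, cKO over control, of the 9 cohesin genes with its 95% interval from limma, on the deposited scale (circles), the scale of Sertoli cell markers (squares) and the scale of germ cell markers (triangles). Stag3, Rad21l and Smc1b lie left of 0 on all 3 scales, while the mitotic or shared genes lie on both sides.

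Cohesin is loaded, acetylated, protected and cut by other proteins, and a list of 19 of their genes was read beside the subunits; 18 passed the filter, and Meikin, a meiotic kinetochore gene with 2.42 to 9.0 normalised read counts in cKO and 2.18 to 15.3 in control, did not. Of the 18, 8 fell and 0 rose, with a median log2 fold change of -0.27 beside 0.01 over all genes, of which 10.4% were called lower and 9.63% higher. On the germ cell scale 2 were lower and 2 higher, where 248 of all 17570 genes tested were lower and 8101 higher. On the Sertoli cell scale 17 were lower, as were 7670 of all genes tested. The roles are given in turn, and differences between them were not tested. Of the 5 genes of the loader and of release 0 were called, with log2 fold changes of -0.21 to -0.07. The count of 0 was the same with edgeR or DESeq2 on the recovered reads and at an unadjusted limma p under 0.05, both for these genes and for rises in the whole list. It depended on the scale: on the Sertoli cell scale all 5 loader and release genes were called lower. On the germ cell scale Mau2, a loader subunit, was called higher (0.44, limma adjusted p = 0.0449), but the median of all genes there was 0.51. In the acetylation cycle Esco2, an acetyltransferase that acts on SMC3 during replication, had 572, 698 and 591 normalised read counts in cKO, against 1820, 1210 and 1471 in control (-1.26, limma adjusted p = 1.58e-06). Its groups were far apart, and it was also called lower on the germ cell scale (-0.75, limma adjusted p = 0.00108). Cdca5, which encodes sororin, fell less (-0.40, limma adjusted p = 0.0286). The other 2 genes of the cycle were not called.

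Of 7 tested genes of protection and cleavage 5 fell, where 10.4% of all genes were called lower. Espl1, which encodes separase, had 1764, 1642 and 1485 normalised read counts in cKO, against 3032, 2861 and 2339 in control (-0.75, limma adjusted p = 6.42e-05). Plk1, a mitotic kinase that also acts on cohesin, fell by 0.53 on the log2 scale, the shugoshin genes Sgo2a by 0.65 and Sgo1 by 0.42, and Haspin, a histone H3 kinase, by 0.47. All 8 called genes had every cKO library below every control, as 18.4% of all genes tested did; genes called lower were likely to be among these. On the germ cell scale Espl1 (-0.24), Plk1 (-0.03), Sgo2a (-0.14), Sgo1 (0.09), Haspin (0.04) and Cdca5 (0.11) were not called. Of the boundary factors, Ctcfl, the germ cell paralogue of CTCF, had 99.0, 132 and 141 normalised read counts in cKO, against 400.1, 437 and 342 in control (-1.66, limma adjusted p = 2.04e-06). Its fall was as large as that of Rad21l and was called on the germ cell scale as well (-1.15, limma adjusted p = 0.000108). Ctcf itself was called on the germ cell scale, as higher (0.44, limma adjusted p = 0.0482), but the median of all genes there was 0.51. The calls that a single library ended were those of Cdca5 without cKO replicate 2 or 3 or control replicate 1 or 2 (limma adjusted p = 0.0711, 0.142, 0.119 and 0.0516), Sgo1 without cKO replicate 2 or control replicate 1 or 2 (0.108, 0.0736 and 0.0561), Sgo2a without cKO replicate 1 or 2 or control replicate 1 (0.131, 0.0537 and 0.104) and Haspin without cKO replicate 1 or 2 or control replicate 2 or 3 (0.0679, 0.0768, 0.0513 and 0.0608). Of the list 4 were lower without cKO replicate 2 and 5 without control replicate 1.

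**Figure D5:**
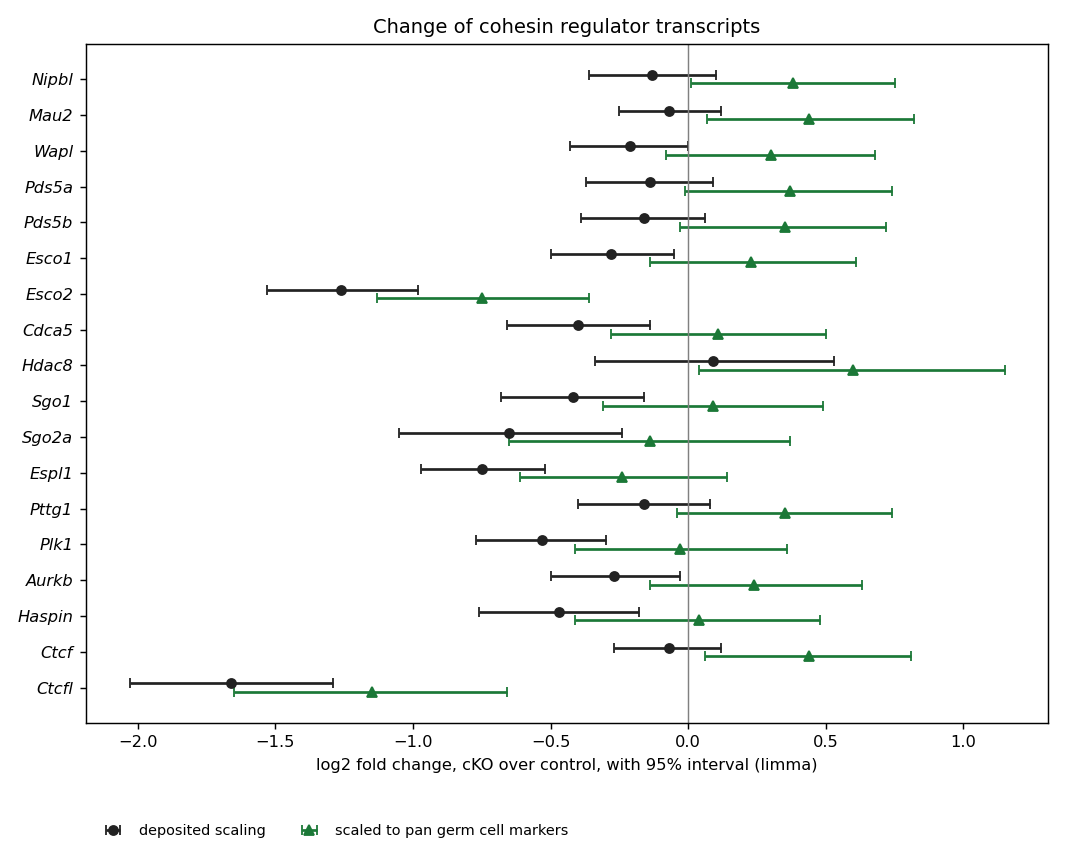
Log2 fold change, cKO over control, of the 18 tested regulator genes with its 95% interval from limma, on the deposited scale (circles) and on the scale of germ cell markers (triangles). Esco2 and Ctcfl lie left of 0 on both scales, and the loader and release genes at the top lie near 0 on the deposited scale and right of it on the germ cell scale.

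The complexes nearest to cohesin in form or place gave the following values, to be read beside the 10.4% of all genes called lower and 9.63% called higher. Of 10 genes of the synaptonemal complex and the HORMA domain axis, which assemble on meiotic cohesin, 10 fell, with a median of -1.25 and a range of -1.61 for Hormad2 to -0.72 for Syce2. Of 14 tested genes of the condensin and SMC5/6 complexes, which share the ring form with cohesin, 6 fell and 0 rose (1 at an unadjusted limma p under 0.05, and 0 by edgeR or DESeq2), with a median of -0.28 and a lowest value of -1.04. The genes whose values over the 6 libraries lay nearest to those of Stag3, by root mean square distance of log2 values centred on the control mean, were M1ap (0.0857), Ccp110 (0.0996), Rps6ka6 (0.101), Dmrtb1 (0.112) and Tex11 (0.112). By the same measure Smc1b lay at 0.159, Rad21l at 0.307 and Rec8 at 0.462 from Stag3, and the mitotic or shared genes at 0.777 to 1.04. The centring leaves the fold change in this distance, so the order largely restates the fold changes given above.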

How the data were processed

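RNA of 6 libraries, 3 cKO and 3 control, was read from 1 table of 22219 genes. Groups and replicate numbers come from the sample titles. The submitters' processing notes list StringTie 1.3.1 and RSEM without saying what each did. The sources used here do not give the aligner, build, annotation or strandedness. Although the table is named for raw counts, the values the authors deposited form a normalised signal: 100.0% of them were whole multiples of 1 step per library (tolerance 1e-06), and 1 divided by that step (0.825 to 1.35) matched a DESeq2-type size factor computed from the recovered reads. Of recovered counts of 1 to 20, 75.1% to 80.9% per library were even, so low counts are not independent single events. 

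Genes were filtered with edgeR's filterByExpr (minimum count 10), leaving 17570. Values were tested as log2(value + 2) with limma 3.58.1 (trended prior, 2-sided, no covariates; R 4.3.3), with Benjamini-Hochberg adjustment over all genes tested. Alternatives were other pseudocounts, filters, scalings, edgeR 4.0.16 and DESeq2 1.42.0 on recovered reads, each library left out, and a replicate block. On whole reads edgeR called 1575 genes higher and 1857 lower. The limma, edgeR and DESeq2 steps were tested on simulated data. The Sertoli cell and germ cell scales divide each library by the median ratio of 11 and 4 markers.

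The members and lists were chosen with earlier results of these data known. All 9 members, 19 regulators with called ones named, and the 5 genes nearest to Stag3 were named by rule. List genes were matched by symbol or RefSeq synonym, and Eid3 was not matched. GENCODE M21 (GRCm38) gave lengths, and no step depends on the build of the table; no annotated gene overlapped exons of the 9 members, other than 28 bases of Stag2. The labels do not tie libraries to separate animals, and the spread behind the tests may be technical.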

Additional observations from a re-analysis of the deposited data

How the results depend on the processing

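The falls of Stag3, Rad21l and Smc1b were called under all 17 alternatives, with log2 fold changes of -1.83 to -0.91, -2.07 to -1.15 and -1.81 to -0.89. That of Rec8 was called under 16, missing on the germ cell scale. All 4 meiotic genes were called lower whichever library was left out. The 5 paralogue ratios kept their direction without each library in turn: -1.28 to -1.15 for Stag3 to Stag1, -1.55 to -1.40 for Stag3 to Stag2, -0.92 to -0.71 for Rec8 to Rad21, -1.86 to -1.49 for Rad21l to Rad21 and -1.37 to -1.03 for Smc1b to Smc1a.

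Scaling moved the counts. On the Sertoli cell scale 56 genes were higher and 7670 lower over all genes, 5 mitotic or shared members were lower and 17 regulators lower. On the germ cell scale 8101 were higher and 248 lower, 2 mitotic or shared members were higher and 0 lower, and 2 regulators were higher and 2 lower. With library totals 806 genes were higher and 2494 lower, so that 75.6% of calls were lower, against 51.9% with the deposited factors. Without each library in turn, 916 to 1764 genes were higher and 1278 to 1792 lower, 0 to 1 mitotic or shared members lower and 4 to 7 regulators lower; leaving out a library also lowers the number of samples.

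The sign turned for Stag2 with library totals (-0.05), on the Sertoli cell scale (-0.37) and without cKO replicate 2 or control replicate 2 or 3 (-0.01 each, in a range of -0.01 to 0.15 over the libraries left out), and for Rad21 with library totals (-0.05), on the Sertoli cell scale (-0.38) and without control replicate 2 (-0.02, in a range to 0.10). On the germ cell scale it turned for Stag1 (0.29), Smc1a (0.30), Smc3 (0.19), Cdca5 (0.11), Sgo1 (0.09) and Haspin (0.04), and also for 9 regulators not called on the deposited scale. That scale puts the median of all genes at 0.51; the cause of the other turns was not tested.

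Same-numbered libraries did not deviate together (r = -0.04, -0.00 and 0.06 over genes for numbers 1 to 3), so no pairing by number was seen. Such correlations cannot show that there was none. With the replicate block 1535 genes were higher and 1771 lower, 4 meiotic members were lower, and the paralogue ratio differences were -1.20, -1.46, -0.82, -1.70 and -1.19, as without it. Not every library correlated best with its own number.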
